A study of Mus musculus with 13 samples.

Results

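The genes described here are the 9 that write, maintain or remove cytosine methylation in the mouse. They comprise the DNA methyltransferases Dnmt1, Dnmt3a and Dnmt3b, the cofactors Dnmt3l and Uhrf1, the dioxygenases Tet1, Tet2 and Tet3, and the DNA glycosylase Tdg. They were taken by gene symbol, and all 9 were found among the 26797 genes listed for the replicate libraries and, by Ensembl identifier, among the 49671 genes of a joint count table. The RNA came from mouse embryonic stem (ES) cells kept on gelatin with serum and leukemia inhibitory factor. There were 3 replicate libraries of WT cells, which were untreated AinV15 ES cells, and 3 of Dnmt1-null cells, a separate ES line with the C allele of Dnmt1. Genotype and cell line therefore cannot be told apart. The joint table held 1 further library each of WT and of Dnmt1-null cells, and 1 each of AinV15 cells that carried a doxycycline-inducible cassette for dCas9-OGA or for dCas9-OGA-D242A together with 4 sgRNAs against IAP retrotransposons. The cells with a cassette were harvested after induction with doxycycline, which the untreated WT cells did not receive, so that drug and cassette cannot be told apart. OGA is the enzyme that removes O-GlcNAc from proteins, dCas9 is a Cas9 that binds DNA without cutting it, and the D242A form of OGA is catalytically inactive. The single WT and Dnmt1-null libraries are known by their column names, and no label ties them to a particular sample. The labels do not tie any replicate to a separate culture, so p-values measure the spread between these samples, which may be technical.

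Methylation of CG dinucleotides in mammals is copied after each round of replication by Dnmt1, which Uhrf1 guides to hemimethylated sites. Dnmt3a and Dnmt3b place new methylation, and Dnmt3l, which has no catalytic activity, stimulates both and is abundant in ES cells and germ cells. The Tet enzymes oxidize methylated cytosine, and Tdg excises the more oxidized forms, so that base excision repair restores an unmodified cytosine.

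Read counts recovered from the replicate values were between 26846275 and 37112247 for WT and between 27934568 and 30950554 for Dnmt1-null libraries, and the single libraries had between 18693531 and 25097983 reads on genes. Of 10 ES cell markers on the list used, 9 were listed, and their summed signal was between 5979 and 6107 in the WT replicates and between 5766 and 6128 in the Dnmt1-null replicates. Of all genes tested 71.2% were called, 35.8% higher and 35.4% lower, which is the background for the marker counts here. Of the 9 ES cell markers, 2 were higher and 4 lower, such as Tdgf1 at 0.31 and Esrrb at −0.45 on the log2 scale (limma adjusted p = 3.8e-05 and 4e-08). Of 6 formative epiblast markers, 2 were lower, Otx2 at −0.87 and Fgf5 at −1.24 (limma adjusted p = 1.8e-10 and 9.7e-08). Markers of other cells differed as well. All 8 fibroblast markers were lower in Dnmt1-null cells, with a summed signal of 1077 to 1546 in WT and 251 to 281 in Dnmt1-null, and Lum, at 0.525 and 0.0581 on average, was close to 0 in both. Of 8 primitive endoderm markers 7 were higher, of 7 tested trophoblast markers 7 were higher, and of 6 markers of 2-cell-like cells 5 were lower. The summed signal of the primitive endoderm markers was 372 to 392 in WT and 668 to 707 in Dnmt1-null. That of the 7 tested trophoblast markers was 106 to 111 and 247 to 252, and that of the 2-cell-like markers was 381 to 408 and 147 to 171. The part of these differences in the results below was not tested. In bulk RNA, fewer cells of a type and less RNA per cell cannot be told apart.

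Of the 9 genes, Dnmt3b and Dnmt3l had the largest rises in Dnmt1-null cells, and their promoters differ in CG content, so the 250 bases before each annotated start are printed here. They are RefSeq sequence of GRCm38.p6, on the plus strand from 5′ to 3′, with each CG in capitals. All 9 genes had at least 1 start in that promoter table, with 3 each for Dnmt1, Dnmt3a and Dnmt3l and 2 for Uhrf1.
Dnmt3b chr2:153649199-153649448: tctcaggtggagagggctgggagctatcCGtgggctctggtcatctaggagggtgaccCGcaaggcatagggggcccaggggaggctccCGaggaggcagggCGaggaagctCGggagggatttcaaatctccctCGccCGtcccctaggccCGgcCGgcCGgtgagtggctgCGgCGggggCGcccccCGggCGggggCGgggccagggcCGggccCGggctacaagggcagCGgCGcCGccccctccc
Dnmt3l start 1 chr10:78042037-78042286: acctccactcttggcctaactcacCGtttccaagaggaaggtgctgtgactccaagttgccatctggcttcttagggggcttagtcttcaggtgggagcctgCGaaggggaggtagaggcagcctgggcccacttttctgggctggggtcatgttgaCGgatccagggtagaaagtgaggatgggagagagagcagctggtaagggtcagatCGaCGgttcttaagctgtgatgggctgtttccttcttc
Dnmt3l start 2 chr10:78049592-78049841: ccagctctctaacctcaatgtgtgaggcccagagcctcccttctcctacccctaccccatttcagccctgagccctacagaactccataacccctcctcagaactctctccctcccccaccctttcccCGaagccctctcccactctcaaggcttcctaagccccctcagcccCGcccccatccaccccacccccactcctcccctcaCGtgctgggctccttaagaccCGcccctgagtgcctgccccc
Dnmt3l start 3 chr10:78055085-78055334: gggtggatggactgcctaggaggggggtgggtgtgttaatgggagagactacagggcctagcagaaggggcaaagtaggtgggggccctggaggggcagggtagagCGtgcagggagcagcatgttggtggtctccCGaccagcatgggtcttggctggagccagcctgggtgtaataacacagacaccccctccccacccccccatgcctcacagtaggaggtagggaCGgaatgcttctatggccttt
The Dnmt3b stretch holds 21 CG, and the 3 Dnmt3l stretches hold 5, 4 and 3. Counted over windows of 300 bases, which run from 250 bases before to 50 after a start, Dnmt3b had 30 CG, and 10.6% of the 32851 promoters in the table had more. The Dnmt3l windows had 6, 4 and 3 CG, and 52.1%, 62.0% and 68.6% of promoters had more. The median promoter had 7 CG, with quartiles of 3 and 20, and 94.6% held at least 1. The letters CG read the same on both strands. Among the other genes the window of Tet2 held 57 CG, a number exceeded by 0.110% of promoters, and those of Tet3, Tdg and Tet1 held 22, 26 and 17. The windows of Dnmt3a held 46, 47 and 18, those of Dnmt1 33, 12 and 2, and those of Uhrf1 12 and 33. Counts per gene do not tell which start was used, and these files hold no methylation values.

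The maintenance genes were examined first, since Dnmt1 is the gene mutated in the Dnmt1-null line. Dnmt1 (ENSMUSG00000004099, minus strand of chr9:20907209-20959888) had a normalized signal of 308, 352 and 347 in the WT replicates and of 73.6, 75.4 and 77.6 in the Dnmt1-null replicates. The Dnmt1-null libraries lay close together, and the 22.5% of the WT level that remained is RNA counted over the whole gene, which does not show which exons it held. On the log2(signal + 0.5) scale the difference was −2.14 (SE 0.05), with an adjusted p of 1.1e-20 by limma over 17297 genes. Of those genes 1.95% had a larger change in either direction. Uhrf1 (ENSMUSG00000001228, plus strand of chr17:56303321-56323486), whose protein recruits Dnmt1, had values of 373, 415 and 402 in WT and of 515, 502 and 515 in Dnmt1-null. Every Dnmt1-null library was above every WT library. The difference was 0.37 on the log2 scale (SE 0.05, limma adjusted p = 9.2e-07). Dnmt1 reads per read of Uhrf1 thus went from 0.845 ± 0.0192 to 0.148 ± 0.00433 (SD, n = 3).

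The de novo genes were all higher in the Dnmt1-null replicates, by 1.13-fold to 3.06-fold, but in the single Dnmt1-null library Dnmt3b and Dnmt3l were below the single WT library, with log2 ratios of −0.14 and −0.31. Dnmt3l (ENSMUSG00000000730, plus strand of chr10:78041947-78063622) stood at 236, 252 and 253 in WT and at 762, 736 and 766 in Dnmt1-null. The group means were 247 ± 9.77 and 755 ± 16.4 (SD, n = 3), with no overlap. The log2 difference was 1.61 (SE 0.05, limma adjusted p = 8.4e-19), and 4.58% of genes had a larger change. Dnmt3b (ENSMUSG00000027478, plus strand of chr2:153649450-153687730), which methylates centromeric satellites among other targets, was measured at 124, 125 and 133 in WT and at 280, 263 and 284 in Dnmt1-null. It rose 2.17-fold, by 1.11 on the log2 scale (SE 0.05, limma adjusted p = 1.1e-15), and 10.4% of genes changed more. Dnmt3a (ENSMUSG00000020661, plus strand of chr12:3806007-3914443) had values of 158, 167 and 171 in WT and of 187, 182 and 190 in Dnmt1-null. The groups did not overlap, but the difference was only 0.17 (SE 0.05, limma adjusted p = 0.0026), and 73.6% of genes changed more. The exons of Dnmt3a share 133 bases with an antisense gene, Dnmt3aos, those of Dnmt3l share 67 bases with Aire on the other strand, those of Tdg share 367 with Glt8d2 and those of Tet2 share 43 with Gm42567, both also on the other strand. The sources differ on whether the libraries kept strand, so reads in shared bases could not be assigned with certainty.

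Of the genes that act on methylated cytosine, Tet1, Tet2 and Tdg were called lower in the Dnmt1-null replicates, by less than 2-fold each, and Tet3 was not called by limma. In the single Dnmt1-null library Tet1 and Tet2 were above the single WT library, with log2 ratios of 1.51 and 1.31. Tet1 (ENSMUSG00000047146, minus strand of chr10:62804570-62908996), the main Tet gene of ES cells, was at 381, 374 and 430 in WT and at 278, 349 and 325 in Dnmt1-null. Relative to the mean, its replicates spread more than those of the other genes, with the third WT library highest and the first Dnmt1-null library lowest. The log2 difference was −0.32 (SE 0.07, limma adjusted p = 0.00017), and between −0.39 and −0.23 with each library left out in turn. Tet2 (ENSMUSG00000040943, minus strand of chr3:133463679-133545139) had values of 170, 177 and 184 in WT and of 128, 148 and 142 in Dnmt1-null. It fell by 0.35 on the log2 scale (SE 0.05, limma adjusted p = 4.9e-06). Tet3 (ENSMUSG00000034832, minus strand of chr6:83362373-83459084), better known from the zygote and neurons, was low throughout, at 22.8, 23.6 and 21.9 in WT and at 19.6, 20.8 and 21.6 in Dnmt1-null. Its difference of −0.14 (SE 0.07) had an adjusted p of 0.076 by limma, whereas edgeR's quasi-likelihood test on the recovered reads gave −0.15 with an adjusted p of 0.048. Tdg (ENSMUSG00000034674, plus strand of chr10:82629828-82650799) had values of 31.7, 30.8 and 28.2 in WT and of 25.2, 25.6 and 27.5 in Dnmt1-null. The lowest WT library (28.2) lay just above the highest Dnmt1-null library (27.5). The difference of −0.21 (SE 0.07, limma adjusted p = 0.0064) lost its call when values were centred on the median gene (−0.14, adjusted p = 0.065) and when the reads of the pseudogene Tdg-ps were added (−0.12, adjusted p = 0.079). Tet1, Tet2, Tet3 and Dnmt3a have transcripts of 9 kb or longer, and the 584 genes of that length had a median log2 difference of −0.16, against 0.04 for the 14183 shorter genes. The split at 9 kb, here and below, was chosen after the data were seen. The part of transcript length in these results was not tested.

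**Figure D1:**
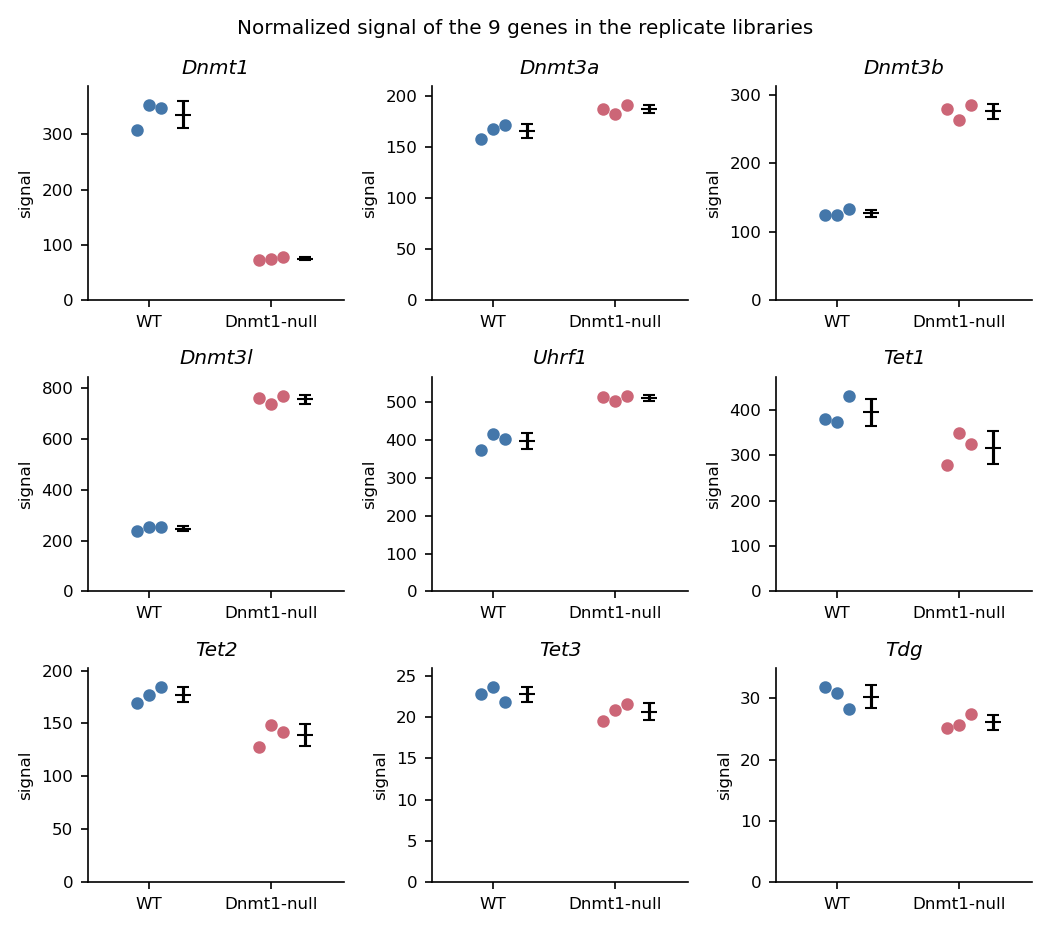
Normalized signal of each of the 9 genes (vertical axis of each panel, from 0) in the 3 WT (blue) and 3 Dnmt1-null (red) replicate libraries, with the group mean and SD in black. Dnmt1 dropped to 75.5, Dnmt3l rose to 755 and Dnmt3b to 276 on average, while Tet1, Tet2 and Tdg were lower by less than 2-fold and Tet3 was not called by limma.

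Counted together, 8 of the 9 genes were called by limma at an adjusted p of 0.05, 4 of them higher and 4 lower. Of all 17297 genes tested, 71.2% passed, 35.8% higher and 35.4% lower, so a called difference was the rule between these lines. By edgeR the call of Tet3 made this 9 of 9, against 70.8% of all genes (34.8% higher, 36% lower), and DESeq2 called 8 of 9, against 65.9% (32.8% higher, 33.2% lower). The groups did not overlap for 9 of the 9 genes and for 73.3% of all genes. A difference of at least 2-fold was found for Dnmt1, Dnmt3b and Dnmt3l, 3 of 9, against 13.1% of all genes, of which 3.67% were higher and 9.41% lower. The median log2 difference was −0.14 over the 9 genes and 0.01 over all genes. The counts above and this median include Dnmt1, the gene mutated in the Dnmt1-null line, whose difference was set by the design. Medians of the chromosomes that carry the 9 genes were between −0.06 and 0.09.

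Ratios between genes of the same library do not depend on its scaling, and 6 of them were compared. The ratio of Dnmt3l to Dnmt3a reads was 1.49 ± 0.0173 in WT and 4.04 ± 0.0242 in Dnmt1-null (SD, n = 3). That of Dnmt3b to Dnmt3a went from 0.771 ± 0.0216 to 1.48 ± 0.0304. These are ratios of reads, not corrected for gene length, so only their change between libraries is read. Dnmt3l also gained on Dnmt3b, from 1.94 ± 0.0734 to 2.74 ± 0.0539. In the single WT and Dnmt1-null libraries these ratios ran the other way, from 5.07 to 3.00 for Dnmt3l to Dnmt3a, from 1.87 to 1.25 for Dnmt3b to Dnmt3a and from 2.71 to 2.41 for Dnmt3l to Dnmt3b. For these ratios and for Dnmt1 to Uhrf1 the replicate groups did not overlap, and the exact permutation test, two-sided, gave p = 0.1, the smallest that 3 against 3 allows (0.15 after Benjamini-Hochberg adjustment over the 6 ratios). In the replicates the Tet genes kept closer proportions. Tet1 to Tet2 was 2.23 ± 0.114 in WT and 2.27 ± 0.0881 in Dnmt1-null, with overlapping groups (exact permutation p = 0.6, adjusted 0.6). Tet1 to Tet3 was 17.4 ± 1.99 and 15.3 ± 1.29 (exact permutation p = 0.3, adjusted 0.36). In the single WT and Dnmt1-null libraries Tet1 to Tet2 was 5.75 and 6.56. Tet1 to Tet3 was 7.30 and 19.8 there, the direction opposite to the replicates. With dCas9-OGA-D242A and dCas9-OGA, Tet1 to Tet2 was 14.1 and 3.95, and Tet1 to Tet3 was 38.7 and 27.7.

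**Figure D2:**
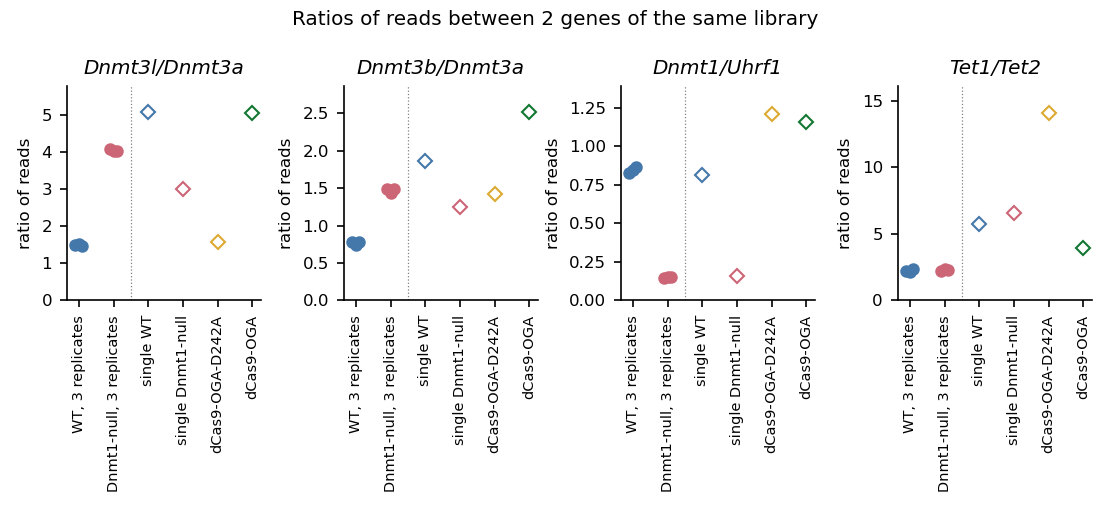
Reads of one gene per read of another in the same library (vertical axes from 0), with filled circles for the replicate libraries and open diamonds for the 4 single libraries. The replicates of each group lie close together. Dnmt3l to Dnmt3a was 1.49 in WT and 4.04 in Dnmt1-null replicates, while in the single libraries it was 5.07 in WT and 3.00 in Dnmt1-null, the opposite direction.

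Levels of different genes were ordered by signal per kilobase of exon (the union of all annotated exons). In WT the order was Uhrf1 (93.1 ± 5.05), Dnmt3l (82.6 ± 3.27), Dnmt1 (45.5 ± 3.26), Tet1 (25.5 ± 1.98), Dnmt3b (24.9 ± 1.03), Tet2 (10.5 ± 0.422), Dnmt3a (9.93 ± 0.419), Tdg (5.63 ± 0.345) and Tet3 (1.36 ± 0.0511), as mean ± SD with n = 3. The ranges of Tet1 and Dnmt3b overlapped, as did those of Tet2 and Dnmt3a, and no other neighbours did. In Dnmt1-null cells Dnmt3l led with 253 ± 5.49, ahead of Uhrf1 (120 ± 1.71) and Dnmt3b (54.0 ± 2.21), and Dnmt1, at 10.2 ± 0.274, lay in the sixth place between Dnmt3a and Tet2. Here no neighbours overlapped. With the longest transcript as the length, Dnmt3l (135) was above Uhrf1 (111) in WT as well, and in Dnmt1-null cells Dnmt1 (12.9) came after Tet2 (15.2) in the seventh place and the ranges of Tet1 and Dnmt3a overlapped. Among the Dnmt genes, summed per length, Dnmt3l made up 50.7% in WT and 77.0% in Dnmt1-null, and Dnmt1 made up 27.9% and 3.12%. In the single libraries Dnmt3l made up 71.3% in WT and 75.3% in Dnmt1-null, and Dnmt1 10.7% and 1.89%. In the replicates the share of Dnmt3b was 15.3% and 16.5%, and that of Dnmt3a 6.10% and 3.42%. In the single WT and Dnmt1-null libraries Dnmt3b made up 15.4% and 18.3%. Dnmt3a made up 2.53% and 4.51% there, the direction opposite to the replicates. Among the Tet genes Tet1 made up 68.3% in both replicate groups. In the single WT and Dnmt1-null libraries Tet1 made up 77.7% and 84.3%, and Tet3 9.86% and 3.94%.

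The neighbourhoods of the genes that changed at least 2-fold were then examined. Aire, a transcriptional regulator best known from the thymus, lies on the other strand and overlaps the start of Dnmt3l by 1664 bases. It rose from 4.73 ± 0.487 to 25.5 ± 3.48 (SD, n = 3), a log2 difference of 2.31 (SE 0.10, limma adjusted p = 2.8e-16). Reads in the 67 exon bases that Aire shares with Dnmt3l may belong to either gene. Their part in the rise of Aire was not tested. Icosl, a ligand of T cell costimulation that lies 5679 bases beyond Dnmt3l, rose from 10.7 ± 0.241 to 33.6 ± 2.04 (log2 difference 1.61, SE 0.07, limma adjusted p = 6.8e-16). Of the 5 nearest tested protein-coding genes on each side of Dnmt3l, 7 of 10 were called, all higher, with a median of 0.42, while 71.2% of all genes were called and 35.8% were called higher. Windows of 5 genes on each side, here and around Dnmt3b and Dnmt1, were chosen after the data were seen. The window here includes Aire and Icosl. Besides Aire and Icosl, Pfkl was at least 2-fold higher, at 1.01. It encodes a phosphofructokinase of glycolysis and was singled out after its value was seen. The next gene beyond Icosl, D10Jhu81e, was at 0.07 and was not called.

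Around Dnmt3b none of the 10 neighbours differed at least 2-fold, 6 were called (5 higher and 1 lower, against 71.2% of all genes), and the median was 0.19. Its nearest neighbours were Commd7, at −0.21 (limma adjusted p = 0.012), and Dnmt3c, a rodent copy of Dnmt3b used in the male germ line. Dnmt3c had a signal of 1.77 ± 0.114 in WT and 3.37 ± 0.311 in Dnmt1-null (SD, n = 3), a log2 difference of 0.77 (SE 0.12, limma adjusted p = 6e-06). The reads of such a close copy may be shared with Dnmt3b. Around Dnmt1, which fell, 6 of 10 neighbours were called (4 higher and 2 lower, against 71.2% of all genes), with a median of 0.12. Angptl6, singled out after its value was seen, differed at least 2-fold, at 1.30 (limma adjusted p = 2.2e-09). The nearest were Eif3g, a translation initiation factor subunit, at 0.47 (limma adjusted p = 8.1e-09), and S1pr2, a receptor for a sphingolipid, at 0.51 (limma adjusted p = 1.3e-08).

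**Figure D3:**
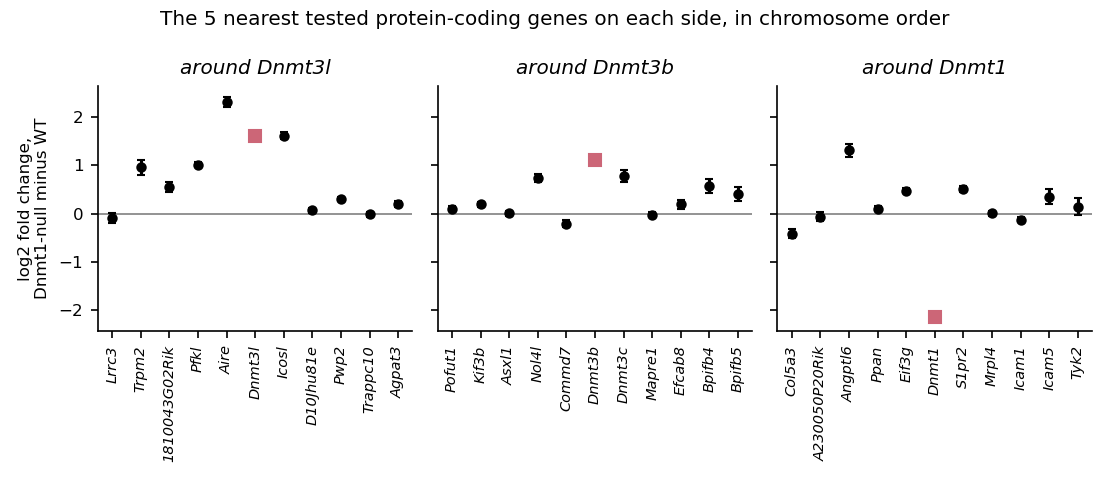
Log2 difference between Dnmt1-null and WT replicates (vertical axis, bars are SE) for Dnmt3l, Dnmt3b and Dnmt1 (red squares) and the 5 nearest tested protein-coding genes on each side (black), in chromosome order along the horizontal axis. Pfkl, Aire, Dnmt3l and Icosl, which lie side by side, were all at or above 1.01, while no neighbour of Dnmt3b reached 1. Aire and Dnmt3l share 67 exon bases.

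The genes whose levels over the 6 replicate libraries were most like those of the strongly changed genes were found among 9787 genes with a mean signal of at least 10, by the root mean square difference of log2 values centred on the WT mean. For Dnmt3l they were Hap1 (0.0226), Pecam1 (0.0494) and Cadm4 (0.0538). For Dnmt3b they were Kcnk6 (0.0273), Gsr (0.0286) and Cep68 (0.0344), and for Dnmt1 they were Actn3 (0.0747), Helz2 (0.0913) and Gm21761 (0.0951). Pecam1, an adhesion molecule that ES cells express, rose from 111 to 354. Gsr, the glutathione reductase gene, rose from 63.6 to 136.

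Partners of the 9 genes were described by lists. Of 9 tested partners of maintenance methylation, 5 were higher and 2 lower, with a median log2 difference of 0.26, against 71.2% of all genes called and a median of 0.01. Dppa3, whose protein keeps Uhrf1 from chromatin, had the largest difference, from 1.51 ± 0.204 to 16.7 ± 2.24 (SD, n = 3), or 3.10 on the log2 scale (SE 0.12, limma adjusted p = 2.9e-17). The remodeller Hells was at 0.44, Cdca7l at 0.42 and Uhrf2 at 0.28. All 13 regulators of de novo methylation were called, 10 higher and 3 lower, with a median of 0.26. The histone demethylase gene Kdm1b was at 0.83, the H3K9 methyltransferase genes Ehmt1 and Setdb1 at 0.56 and 0.41, and Prdm14, which represses Dnmt3 genes in ES cells, fell by 0.67 from 43.2 ± 1.80 to 27.0 ± 0.748 (SD, n = 3, limma adjusted p = 4e-10).

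Of 10 genes for Tet partners and the supply of the Tet cofactor 2-oxoglutarate, 6 were higher and 2 lower, with a median of 0.35, and 71.2% of all genes were called. Idh1, an isocitrate dehydrogenase gene, rose from 100 ± 5.06 to 189 ± 7.84 (SD, n = 3, log2 difference 0.91, limma adjusted p = 8.1e-14). The mitochondrial Idh2 was at 0.62 and the corepressor gene Sin3a at 0.50. Of 15 tested genes of base excision repair 7 were higher and 3 lower, with a median of 0.13, so that no larger share was called than among all genes. The 4 with the smallest p were split: Lig3, a DNA ligase gene, was at 0.69, whereas the abasic endonuclease gene Apex1 was at −0.86, the glycosylase gene Neil2 at −1.36 and Gadd45g at −1.47. Of 15 genes of the S-adenosylmethionine and folate cycle, which makes the methyl donor, 11 were higher and 3 lower, with a median of 0.24. Mat2a, which encodes the synthase of S-adenosylmethionine, rose from 216 ± 12.9 to 382 ± 5.70 (SD, n = 3, log2 difference 0.82, limma adjusted p = 4.8e-13), and Shmt1 was at 0.67, while Tdh was at −0.70. Trdmt1, the paralogue that methylates tRNA, was at 8.97 ± 0.650 in WT and 10.8 ± 0.605 in Dnmt1-null (log2 difference 0.26, limma adjusted p = 0.013).

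The 4 single libraries gave levels in cells with dCas9-OGA, in cpm, which are reads scaled to the library total and TMM factor. With 1 library per condition no difference had a replicate check, no test was run, and 95% intervals cover counting error only. Tdg had 54 reads in WT, 39 in Dnmt1-null, 25 in dCas9-OGA-D242A and 35 in dCas9-OGA, under the 100 reads required in a pair, so 8 of the 9 genes were compared. Between dCas9-OGA and its inactive form, Dnmt3a stood at 62.4 cpm (1548 reads) against 252 cpm (6266 reads), a log2 ratio of −2.01 (95% interval −2.10 to −1.93). Dnmt3b stood at 157 against 358 cpm, a log2 ratio of −1.19 (−1.24 to −1.13). Both de novo methyltransferase genes were thus lower in the dCas9-OGA library than in any of the other 3, and Dnmt3l, at 315 against 399 cpm, was at −0.34 (−0.39 to −0.30). Tet2 was the gene with the largest ratio upwards, with 197 against 53.3 cpm (4885 and 1325 reads), or 1.87 (1.80 to 1.97). Tet3 was at 0.52, Dnmt1 at 0.55 (549 against 376 cpm) and Uhrf1 at 0.61 (472 against 310 cpm), and Tet1 at 0.05 (777 against 750 cpm). A ratio of at least 2-fold was found for 3 of 8 genes, 1 higher and 2 lower, against 12.1% of 12722 genes (4.88% higher, 7.22% lower). The 449 genes with transcripts of 9 kb or longer had a median of 0.25 in this pair, and the others 0.03. Cell type markers also differed in this pair. The summed level was 5744 cpm with dCas9-OGA and 3906 cpm with dCas9-OGA-D242A for the 9 ES cell markers, 282 and 141 cpm for primitive endoderm, 115 and 155 cpm for formative epiblast, 129 and 216 cpm for trophoblast, and 40.9 and 61.3 cpm for fibroblast markers. At least 2-fold higher were 2 ES cell and 4 primitive endoderm markers, and at least 2-fold lower were 2 trophoblast, 2 fibroblast and 1 formative marker, Otx2, at a log2 ratio of −3.29. The part of these differences in the ratios of the Dnmt3 and Tet genes was not tested.

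Against the single WT library, which is a member of several pairs, dCas9-OGA-D242A had 2 of 8 genes at least 2-fold apart, 1 higher and 1 lower (20.8% of 12933 genes, 12.5% higher and 8.28% lower). Dnmt3l stood at 399 against 1241 cpm, a log2 ratio of −1.64 (−1.67 to −1.60), and Tet1 at 750 against 179 cpm, a ratio of 2.06 (2.02 to 2.11). Dnmt3a, at 252 against 245 cpm, had an interval of −0.0092 to 0.0931 that spans 0. The dCas9-OGA library had 5 of 8 genes at least 2-fold from WT, 2 higher and 3 lower (23.8% of 12746 genes, 14% higher and 9.78% lower), with log2 ratios of −1.96 for Dnmt3a, −1.54 for Dnmt3b, −1.98 for Dnmt3l, 2.12 for Tet1 and 2.64 for Tet2. Genes with long transcripts were higher as a class in both pairs, with medians of 0.56 over 448 genes and 0.76 over 438 genes. The quartiles of that class were −0.04 and 1.33 for dCas9-OGA-D242A and 0.18 and 1.64 for dCas9-OGA. Tet1 lay above the upper quartile in both pairs, Tet2 inside the quartiles at 0.77 in the first pair and above them in the second, Tet3 below the lower quartile in the first pair (−0.33) and just inside in the second (0.19). Dnmt3a, of the same class, lay inside the quartiles in the first pair (0.04) and below them in the second (−1.96). The part of length was not tested. The summed level of trophoblast markers was 567 cpm in WT, 216 with dCas9-OGA-D242A and 129 with dCas9-OGA, that of 2-cell-like markers 15.5, 1.05 and 0.282 cpm, and that of ES cell markers 5473, 3906 and 5744 cpm. The part of these differences was not tested either.

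**Figure D4:**
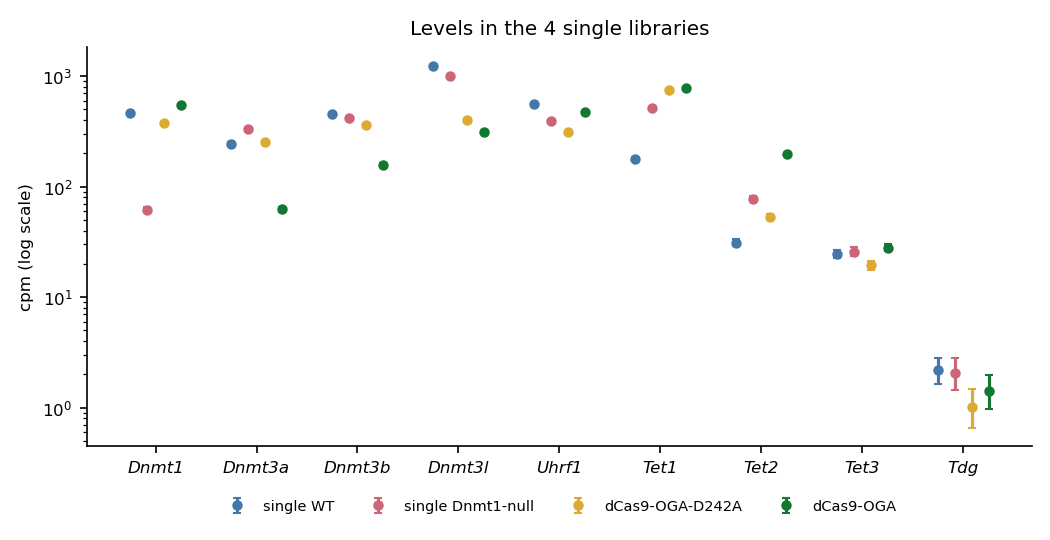
Level in cpm (vertical log axis) of the 9 genes in the 4 single libraries, with bars for the 95% counting interval, which is smaller than the symbol for most genes. Dnmt3a and Dnmt3b were lowest and Tet2 highest with dCas9-OGA, Tet1 was lowest in WT, and Tdg lay between 1.01 and 2.18 cpm.

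The single Dnmt1-null and WT libraries gave a further view of the comparison made with the replicates. Dnmt1 was again far lower, with 1176 reads (61.9 cpm) against 11408 (460 cpm), a log2 ratio of −2.89 (−2.98 to −2.81). Dnmt3a was higher in both sets, here at 333 against 245 cpm, or 0.44. The other genes compared did not keep their direction. Dnmt3l was at 999 against 1241 cpm (−0.31), Dnmt3b at 415 against 458 cpm (−0.14) and Uhrf1 at 391 against 564 cpm (−0.53). Tet1 was at 512 against 179 cpm (1.51, interval 1.47 to 1.57) and Tet2 at 78.1 against 31.1 cpm (1.31, interval 1.20 to 1.45), while Tet3 had an interval of −0.097 to 0.251 that spans 0. In this pair 3 of 8 genes differed at least 2-fold, 2 higher and 1 lower, against 17.4% of 12593 genes (10.5% higher, 6.89% lower). The 1 lower was Dnmt1, the gene mutated in the Dnmt1-null line. Aire and Icosl, which rose beside Dnmt3l in the replicates, were at 64.1 and 24.0 cpm in the single WT library and at 50.7 and 26.4 cpm in the single Dnmt1-null library, and Pfkl had a log2 ratio of −0.89 there. Near Dnmt1, S1pr2 (−0.81) and Eif3g (−0.05) lay on the side opposite to the replicates. Angptl6 (0.22), near Dnmt1, and Commd7 (−0.62), beside Dnmt3b, did not. Of the partner genes named above, Uhrf2 (−0.83), Ehmt1 (−0.31), Setdb1 (−0.33), Prdm14 (0.36), Apex1 (0.40) and Tdh (0.15) also lay on the side opposite to the replicates. Long transcripts had a median of 0.41 over 434 genes in this pair and the others −0.09, which is opposite to the replicates. The summed level of the 7 tested trophoblast markers was 567 cpm in the single WT library and 82.4 cpm in the single Dnmt1-null library. Primitive endoderm markers summed to 222 and 129 cpm. Both of these sums ran in the direction opposite to the replicates. The 6 markers of 2-cell-like cells summed to 15.5 and 0.526 cpm, and fibroblast markers to 49.0 and 30.7 cpm. ES cell markers summed to 5473 and 4405 cpm, and formative epiblast markers to 270 and 205 cpm. The part of these differences was not tested. The WT and Dnmt1-null columns of the joint table cannot be tied to any of the replicates, and no label gives their aligner, while the study's methods name HISAT2 for gene counts in general.

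**Figure D5:**
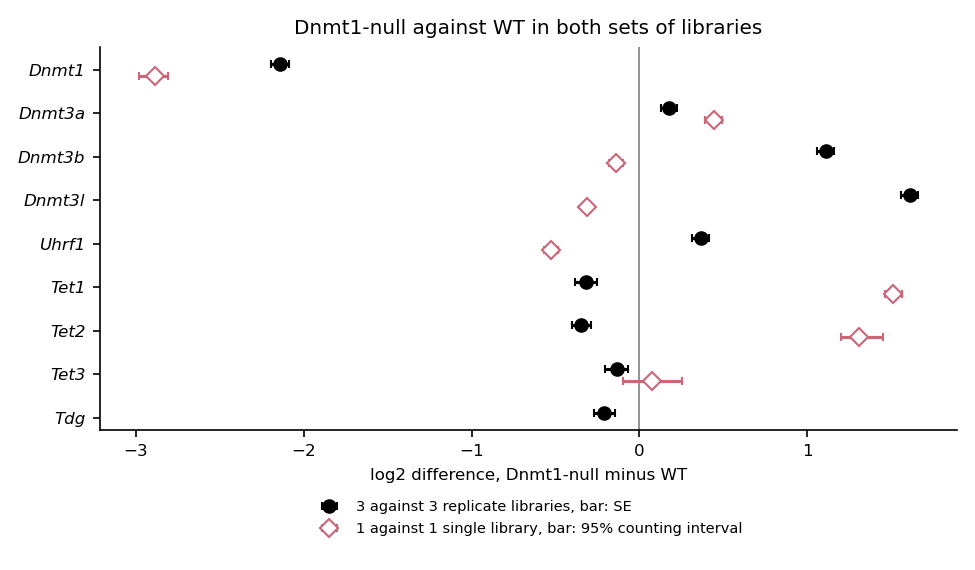
Log2 difference between Dnmt1-null and WT (horizontal axis) for the 9 genes in the replicate libraries (filled circles, bars are SE, 3 against 3) and in the single libraries (open diamonds, bars are 95% counting intervals, 1 against 1, Tdg not compared). Dnmt1 lay left of 0 and Dnmt3a right of 0 in both sets, and the other 6 genes compared lay on opposite sides.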

How the data were processed

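RNA-seq values came from mouse ES cells. Per the labels and the study's methods, reads were mapped to mm10 and counted on Ensembl genes with featureCounts 1.5.0. HISAT2 2.1.0 was named for the replicates and TopHat2 2.0.11 for the dCas9-OGA and dCas9-OGA-D242A samples. Bowtie2 2.2.2 was named for all of them. For the replicates the authors deposited a normalized signal, which is counts divided by a scaled library size, and for the single libraries the authors deposited raw counts. Column names in the replicate files were shifted against their content, and the values were read by column position. Signal values were whole multiples of a step specific to each library (100% within 0.01), which gave back read counts. WT and Dnmt1-null replicates were compared with limma 3.58.1 (trend) on log2(signal + 0.5) with Benjamini-Hochberg adjustment over the 17297 of 26797 genes that passed edgeR's filterByExpr, at a threshold of 0.05. The pseudocount understates changes of low genes. Alternatives were DESeq2 1.42.0 and the quasi-likelihood test of edgeR 4.0.16 on recovered reads, other scalings, filters and pseudocounts, a replicate block, and leaving out each library. Single libraries were compared without a test on log2(cpm + 0.5) with TMM factors, for genes with at least 100 counts in a pair, and intervals are exact binomial or Poisson at 95%. Same-numbered replicates did not deviate together (r = 0.0740, −0.0164 and 0.0652 over 17297 genes), so the numbers were not taken to pair them. Replicates of a group differed by more than sampling noise (chi-square per degree of freedom between 3.205 and 11.79). GENCODE vM21 matched 26679 of 26797 identifiers and gave lengths and neighbours on GRCm38. Named genes were the 9 genes, up to 4 genes per list with the smallest adjusted p, the nearest tested neighbours of genes that changed at least 2-fold, and the 3 genes most like each of those. Some genes that this rule selects are not reported here. The 9 genes and the lists were chosen with earlier results of these data known. Scripts were tested on simulated data. Figures were drawn with matplotlib 3.10.9, tests ran in R 4.3.3 and SciPy 1.17.1, and tables were handled with pandas 2.3.3 and NumPy 2.4.6 in Python 3.11.15. ChIP-seq samples and the repeat table were not analysed here.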

Additional observations from a re-analysis of the deposited data

Results flagged for a closer look

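For 6 of the 9 genes the single Dnmt1-null and WT libraries differed in the direction opposite to the replicate groups. The difference between the sets was not tested. The log2 ratio of Dnmt1-null to WT in the single libraries was −0.141 for Dnmt3b and −0.313 for Dnmt3l, against 1.11 and 1.61 in the replicates. It was −0.5253 for Uhrf1, against 0.37. For Tet1 it was 1.514 and for Tet2 1.312, against −0.32 and −0.35. For Tet3 it was 0.07591, with a 95% counting interval of −0.097 to 0.251, against −0.14, which limma did not call in the replicates.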

How the results depend on the processing

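All 9 genes kept their direction between the replicate groups under every alternative, and Dnmt1, Dnmt3a, Dnmt3b, Dnmt3l, Uhrf1, Tet1 and Tet2 stayed past the threshold in each. Tet3 passed only with edgeR (−0.15, adjusted p = 0.048). Tdg no longer passed when values were centred on the median gene (−0.14, adjusted p = 0.065) and, in an alternative chosen after seeing the data, when its reads were summed with those of Tdg-ps (−0.12, adjusted p = 0.079). The latter changes what is counted, and the cause was not tested otherwise. Requiring a mean signal of at least 10 left fewer genes to test and 7393 calls over all genes, 2928 of them lower. Centred on the median gene, 7224 of all genes were called higher and 5364 lower, in place of 6196 and 6128. The even split of calls thus depends on the scaling. With the replicate block, which does not correspond to a known pairing, 12556 genes were called in place of 12324, and 8 of the 9 genes as before. It changed no call among the 9 genes.

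With each library left out in turn, the log2 difference was between −2.20 and −2.11 for Dnmt1, 0.14 and 0.20 for Dnmt3a, 1.09 and 1.15 for Dnmt3b, 1.58 and 1.63 for Dnmt3l, 0.32 and 0.40 for Uhrf1, −0.39 and −0.23 for Tet1, −0.39 and −0.28 for Tet2, −0.17 and −0.098 for Tet3, and −0.26 and −0.17 for Tdg. Calls over all genes were between 11723 and 12289 (5882 to 6185 higher, 5804 to 6104 lower), and 8 of the 9 genes were called each time. The difference in the Tet1 to Tet2 ratio was between −0.011 (without WT replicate 2, a change of sign) and 0.063 on the log2 scale, and its groups overlapped with all libraries in. The difference in the Tet1 to Tet3 ratio was between −0.24 and −0.089. Log2 ratios of the single libraries moved with the scaling, without a change of sign. Relative to the median gene, the single Dnmt1-null to WT ratio was −0.0705 for Dnmt3b in place of −0.141. For Tet3 it was 0.146 in place of 0.0759. The spread between cultures is unknown for those libraries, and Tdg, with 25 to 54 reads, was under the minimum for a comparison in them.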

Other observations

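Tdg stood lower in every single library than in the replicates, in tables that were scaled separately. It had 1.01 to 2.18 cpm in the 4 single libraries and a signal of 25.2 to 31.7 in the 6 replicate libraries. The pseudogene Tdg-ps showed a like contrast, with 0.0402 to 0.161 cpm in the single libraries and a signal of 10.0 to 12.7 in the replicates. The ranges of the other 8 genes overlapped between the sets, as for Tet2, with 31.1 to 197 cpm and a signal of 128 to 184. Ahcy, which encodes the hydrolase of S-adenosylhomocysteine and was singled out after its values were seen, had 2.22 to 5.58 cpm in the single libraries and a signal of 66.3 to 80.0 in the replicates. Values of Tdg in the 2 tables are therefore not interchangeable, and the cause was not tested.

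Among the partner genes named above, Mat2a was lower in both libraries with the cassette than in the single WT library, at 461 cpm in the single WT library, 134 in dCas9-OGA-D242A and 121 in dCas9-OGA. Dppa3 stood at 10.1 cpm in the single WT, 75.3 in the single Dnmt1-null, 29.3 in the dCas9-OGA-D242A and 1.29 in the dCas9-OGA library. These values have no replicate check.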
